A study of Mus musculus with 16 samples.

Results

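Transcription factor genes of the craniofacial mesenchyme were followed in mGF, gingival fibroblasts of the mouse that make the connective tissue of the gum. The set was chosen by gene symbol and holds 10 of the 56941 genes in the count table, namely Msx1, Msx2, Dlx1, Dlx2, Dlx5, Pitx1, Pax9, Barx1, Prrx1 and Twist1. All 10 had counts, and 9 passed the filter on low counts. Pitx1 did not, and Dlx5 passed through the conditions in which it was higher. The cells were grown from explants of WT C57Bl6 mice aged 3 to 6 months, from gum around an upper molar, and were used at passages 2 to 8 in medium with 20% fetal bovine serum. They received BSA (control), IL-1β at 1 ng/mL on the BSA vehicle, palmitate at 200 μM as a complex with BSA, or palmitate + IL-1β, for 24 h. Palmitate is a saturated fatty acid and IL-1β an inflammatory cytokine. Each condition had 4 libraries of bulk RNA, numbered 1 to 4 for BSA, 5 to 8 for IL-1β, 9 to 12 for palmitate and 13 to 16 for palmitate + IL-1β. The cultures stand for passaged explant fibroblasts and not for the tissue. No source says that the libraries of a condition came from separate animals or cultures, so p-values measure only the spread between these libraries.

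Much of the connective tissue of the face and jaws descends from cranial neural crest cells that fill the pharyngeal arches. Homeobox, paired-box and basic helix-loop-helix factors, switched on there by BMP, FGF, endothelin and hedgehog signals, give this mesenchyme its regional identity and later direct tooth, bone and palate formation. Mesenchyme of the first arch is known for lacking Hox gene expression. MSX1 and MSX2 are homeodomain repressors that act downstream of BMP in tooth and suture mesenchyme. DLX proteins pattern the arch from its upper to its lower part, with Dlx1 and Dlx2 used broadly and Dlx5 in the lower part. PITX1 marks the lower jaw, PAX9 is needed for tooth buds and palate, and BARX1 marks the molar field. PRRX1 is a general factor of limb and face mesenchyme, and TWIST1 is a helix-loop-helix factor of neural crest mesenchyme and of sutures.

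The depth lay between 21234789 and 92752515 counts in genes per library, and palmitate replicate 10 was the deepest. Levels are given as CPM (counts scaled to a common library size, with edgeR's TMM factors), and 3 counts, taken as the detection floor, corresponded to 0.033 to 0.146 CPM. The floor covers counting error only, as PCR duplicates could not be told apart from molecules. The fibroblast identity was checked on marker genes. The summed level of 10 fibroblast markers was 28457 to 33695 CPM, and all 10 passed the filter. Summed levels were at most 5.11 CPM for 10 epithelial markers, 2.74 CPM for 6 endothelial markers, 4.41 CPM for 8 leukocyte markers, 3.80 CPM for 7 Schwann and melanocyte markers and 6.84 CPM for 7 osteoblast and odontoblast markers, but reached 222 CPM for 7 pericyte and muscle markers. Among defining markers, the keratin gene Krt14 had at most 4 counts in a library, the epithelial gene Epcam at most 5 and the leukocyte gene Ptprc at most 7. Other genes of these lists had more, with at most 194 counts for the epithelial gene Dsp and 122, 83 and 43 for the leukocyte genes Csf1r, Cd68 and Lyz2.

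RefSeq promoter windows, from 250 bases before to 50 after the RefSeq start, were matched by symbol for 8 of the 10 genes, without Dlx5 and Pitx1. The windows came from GRCm38.p6 and were placed on GRCm39, the build of the counts, by exact match. The following stretches are shown because they come from a gene that was lower with palmitate (Twist1), from Msx1 and Msx2, which moved in opposite directions, from the most abundant gene (Prrx1) and from a gene with no called change (Barx1). Capitals in Twist1, Msx1 and Barx1 mark the GC box, GGGCGG on either strand. They also mark TATAAA in Twist1. In Msx2 and Prrx1 they mark TAATTA, the core that homeodomain proteins bind. The first 3 lie upstream of every annotated start of the gene. The stretches of Msx2 and Prrx1 lie before the RefSeq start but inside the gene span of GENCODE, which gave the gene positions.
Twist1, chr12:34007420-34007644, plus strand: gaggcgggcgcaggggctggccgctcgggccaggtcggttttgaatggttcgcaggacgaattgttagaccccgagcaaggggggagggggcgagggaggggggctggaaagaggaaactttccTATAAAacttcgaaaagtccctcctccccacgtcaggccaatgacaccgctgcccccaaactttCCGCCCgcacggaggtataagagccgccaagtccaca
Msx1, chr5:37981930-37982179, minus strand: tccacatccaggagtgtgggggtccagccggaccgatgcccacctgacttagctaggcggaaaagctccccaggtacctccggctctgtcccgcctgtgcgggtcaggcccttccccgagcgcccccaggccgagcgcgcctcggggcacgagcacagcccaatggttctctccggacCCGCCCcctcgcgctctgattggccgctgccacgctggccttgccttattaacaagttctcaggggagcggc
Barx1, chr13:48816262-48816383, plus strand: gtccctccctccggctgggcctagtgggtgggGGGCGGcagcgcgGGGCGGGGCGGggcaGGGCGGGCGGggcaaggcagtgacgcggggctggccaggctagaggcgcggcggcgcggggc
Msx2, chr13:53626986-53627015, minus strand: tgactgctcctgTAATTAactcctaattta
Prrx1, chr1:163141375-163141404, minus strand: gcaagggaatgaTAATTAgacctttatttt

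Both strands were searched in the 8 windows. GGGCGG was found in 6 of them (Dlx1, Dlx2, Msx1, Twist1, Barx1 and Msx2) and in 35.7% of all 32851 windows in the table. Barx1 held 8 copies, of which some overlap. TAATTA was found in Msx2 and Prrx1 and in 5.29% of all windows, 187 to 182 bases before the RefSeq start in Msx2. TATAAA was found in Twist1, 126 to 121 bases before its RefSeq start, and in 13.6% of all windows. The NF-kB consensus, by its name, was found in Pax9, 39 to 48 bases after the RefSeq start, and in 8.46% of all windows. CATCTG, the E box of the Twist1 class, was found in none of the 8 windows and in 17.2% of all, and TGACTCA, the AP-1 site, in none of the 8 and in 5.2% of all. A match is a description of letters and not a binding site.

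In BSA (control) the genes spanned about 3 orders of magnitude per length. Levels between genes were compared as CPM per kb of exon. Prrx1 was the highest at 128 ± 7.47 CPM per kb (SD, n = 4) and ranked 131 among 16245 genes with a length and enough counts. Twist1 followed at 61.3 ± 4.74 CPM per kb, at rank 298. Both are thus among the more abundant transcripts of these fibroblasts. Barx1 stood at 19.8 ± 0.506 CPM per kb (rank 1203) and Pax9 at 14.0 ± 0.240 CPM per kb (rank 1818). Msx1 at 3.26 ± 0.202 CPM per kb lay near the middle of all genes (rank 6554). Msx2 was lower at 1.13 ± 0.194 CPM per kb, and Dlx1, Dlx2 and Dlx5 stood at 0.662 ± 0.135, 0.479 ± 0.151 and 0.210 ± 0.0594 CPM per kb. Pitx1 was the lowest at 0.114 ± 0.0657 CPM per kb. The ranges of neighbours in this order overlapped only for Dlx1 with Dlx2 and for Dlx5 with Pitx1. The order of the 9 ranked genes was the same with the length of the canonical transcript, although Prrx1 then stood at 356 CPM per kb, since its exons together span 16550 bases and its canonical transcript 5951. The ranks among all genes moved with that length, to 80 for Prrx1, 605 for Twist1, 2446 for Barx1, 2889 for Pax9 and 6995 for Msx1.

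**Figure D1:**
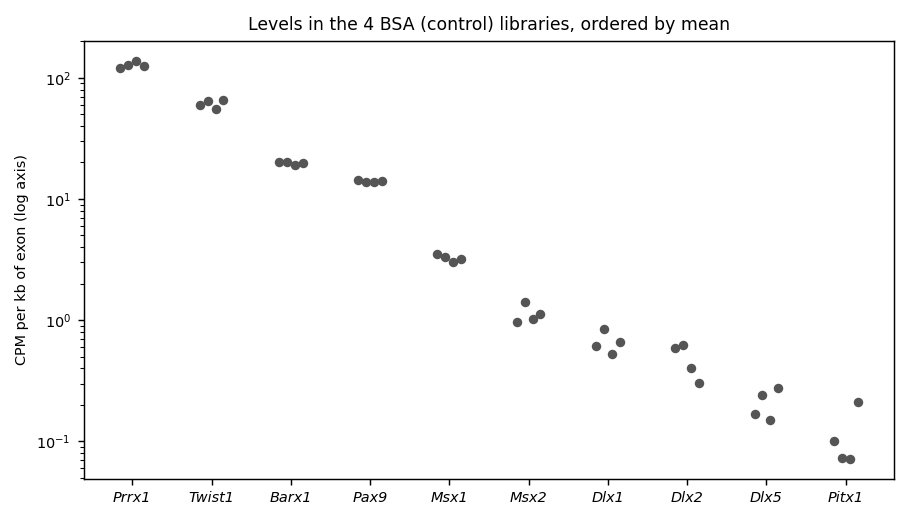
Level of each gene in the 4 BSA (control) libraries, in CPM per kb of exon on a log axis, ordered by the mean. Prrx1 and Twist1 lie above 50 CPM per kb, and the points of Dlx1 and Dlx2, and of Dlx5 and Pitx1, overlap.

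With palmitate, 6 of the 8 genes tested beside Dlx5 changed against BSA (control). Msx2 rose, while Msx1, Dlx2, Pax9, Prrx1 and Twist1 fell (edgeR quasi-likelihood test, Benjamini-Hochberg adjusted p under 0.05 over 16306 genes). Of all tested genes 37.3% were called in this comparison, 19.8% higher and 17.5% lower. The median log2 fold change of the 8 genes was -0.32, against -0.00 for all genes tested. Dlx5 is left out of these counts, since it entered the test only through conditions in which it was higher, and is described by its values. Of the 8 genes, libraries did not overlap between the conditions for Msx2 (higher) and for Msx1, Pax9, Prrx1 and Twist1 (lower). The same held for 36% of all genes, 19.5% higher and 16.5% lower. With IL-1β alone, Msx2 rose and Dlx1 and Twist1 fell, where 15.1% of all genes were called, 10.1% higher and 4.97% lower; libraries did not overlap for Dlx1 alone, and for 6.59% of all genes in that direction and 17.6% in either. With palmitate + IL-1β, Msx2 rose and the other genes of the 8 but Barx1 fell, 6 in number, where 47.3% of all genes were called, 24.8% higher and 22.5% lower. There, Msx2 (higher) and Msx1, Pax9, Prrx1 and Twist1 (lower) did not overlap, as did not 41.5% of all genes, 22.2% higher and 19.3% lower. These 3 comparisons share the BSA libraries. Counts of RNA in bulk cannot tell fewer cells of a type from less RNA per cell.

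**Figure D2:**
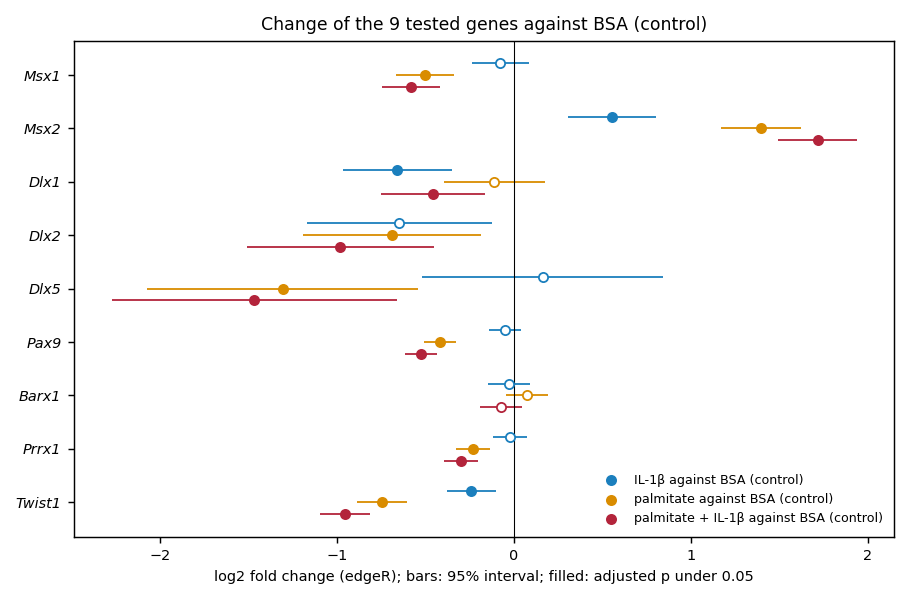
Log2 fold change of the 9 tested genes against BSA (control) for each treatment, with 95% intervals from edgeR; filled points have an adjusted p under 0.05. Msx2 lies to the right of 0 in all 3 comparisons, and the intervals of Barx1 include 0 in all 3. Dlx5 is drawn although it passed the filter only through conditions in which it was higher.

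Msx2 (chr13:53620914-53627110) was the only one of the genes that was called higher against BSA (control). Its levels were 3.19, 4.62, 3.35 and 3.67 CPM in BSA, and 8.78, 10.3, 9.58 and 10.1 CPM with palmitate. All palmitate libraries lay above all BSA libraries, and the fold was 2.63 (log2 1.40 ± 0.11 SE, edgeR adjusted p = 5.34e-12). With IL-1β the levels were 4.99, 6.83, 5.41 and 4.55 CPM. The lowest of them overlapped the highest BSA library, and the log2 fold change was 0.56 ± 0.12 (edgeR adjusted p = 0.00133). With palmitate + IL-1β they were 12.2, 11.8, 12.4 and 12.4 CPM, the highest of any condition, at a log2 fold change of 1.72 ± 0.11 against BSA (edgeR adjusted p = 1.89e-14).

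Msx2 was also the only gene of the set that edgeR called between palmitate + IL-1β and palmitate, where 9.81% of all genes were called, 5.71% higher and 4.1% lower. The log2 fold change was 0.32 ± 0.10 (edgeR adjusted p = 0.0305) and the libraries did not overlap, which held for 16.7% of all genes, 9.16% higher and 7.59% lower. The only other gene without overlap in this comparison was Dlx1, which was lower (-0.34 ± 0.14, edgeR adjusted p = 0.141). The call of Msx2 was lost without palmitate replicate 9, 11 or 12 or without palmitate + IL-1β replicate 13, 15 or 16, with log2 fold changes of 0.28 to 0.33 in those fits. Against IL-1β alone, palmitate + IL-1β gave 1.16 ± 0.11 (edgeR adjusted p = 1.54e-10), in a comparison where 35% of all genes were called, 18.9% higher and 16.1% lower.

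Msx1 (chr5:37977829-37981928), the paralogue of Msx2, went the other way with palmitate. Its levels were 11.2, 10.6, 9.68 and 10.2 CPM in BSA (control), and 7.18, 7.13, 7.30 and 7.92 CPM with palmitate. No palmitate library reached a BSA library, and the log2 fold change was -0.50 ± 0.08 (edgeR adjusted p = 5.44e-06). With IL-1β alone the levels were 10.1, 10.4, 9.17 and 9.85 CPM, which overlapped BSA (log2 fold change -0.08, 95% interval -0.24 to 0.08). With palmitate + IL-1β they were 6.62, 6.68, 7.45 and 7.18 CPM, again under all BSA libraries (log2 fold change -0.58 ± 0.08, edgeR adjusted p = 4.1e-07). The difference from palmitate alone was -0.08 on the log2 scale, with a 95% interval of -0.25 to 0.09.

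The balance within the Msx pair therefore moved in each treated condition. Per kb of exon, Msx2 made up 21.7%, 29.8%, 25.2% and 25.9% of the sum of Msx1 and Msx2 in the BSA libraries. The share was 32.3%, 38.9%, 36.4% and 31.0% with IL-1β, and 54.3%, 58.5%, 56.0% and 55.2% with palmitate. It reached 64.1%, 63.1%, 61.8% and 62.6% with palmitate + IL-1β. The shares of the 4 conditions did not overlap. Msx1 was the more abundant of the pair in every library without palmitate, and per kb of exon Msx2 was in every library with it. With the length of the canonical transcript in place of all exons, the shares were 18.3% to 25.6%, 26.7% to 34.0%, 49.1% to 53.3% and 56.8% to 59.1% in the same order, still without overlap, and Msx2 then exceeded Msx1 in 2 of the 4 palmitate libraries and in all 4 with palmitate + IL-1β. The summed level of the pair was 4.39 ± 0.279 CPM per kb (SD, n = 4) in BSA, 4.76 ± 0.401 with IL-1β, 5.27 ± 0.266 with palmitate and 5.90 ± 0.207 with palmitate + IL-1β.

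**Figure D3:**
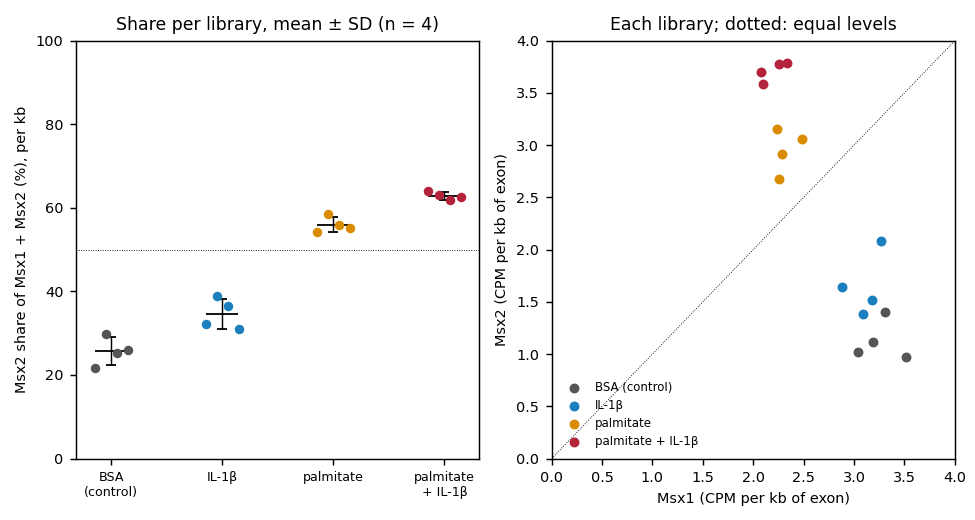
Left, share of Msx2 in the sum of Msx1 and Msx2 (percent, per kb of exon) in each library, with mean ± SD. Right, Msx2 against Msx1 in CPM per kb of exon; the 8 libraries with palmitate lie above the line of equal levels and the 8 without it below.

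The Dlx genes were scarce. Dlx1 (chr2:71358457-71364325) had 58 to 290 counts per library. Its levels were 3.31, 4.55, 2.82 and 3.60 CPM in BSA (control) and 2.37, 2.34, 1.87 and 2.57 CPM with IL-1β. The IL-1β libraries lay under all BSA libraries, and the log2 fold change was -0.66 ± 0.15 (edgeR adjusted p = 0.00221). With palmitate alone they were 3.54, 3.19, 3.19 and 3.45 CPM, within the BSA range (log2 fold change -0.11, 95% interval -0.39 to 0.17). Palmitate exceeded IL-1β by 0.55 ± 0.15 on the log2 scale (edgeR adjusted p = 0.00543), where 31.6% of all genes were called, 16.5% higher and 15.2% lower. With palmitate + IL-1β they were 2.63, 2.41, 2.38 and 3.05 CPM (log2 fold change against BSA -0.45 ± 0.14, edgeR adjusted p = 0.0098), with an overlap of 1 library. That call was lost without BSA replicate 2, at -0.33 (edgeR adjusted p = 0.0698).

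Dlx2 (chr2:71373752-71377102), the neighbour of Dlx1 in a convergent pair, had 13 to 83 counts per library. Its levels were 1.69, 1.78, 1.14 and 0.873 CPM in BSA (control), a wide spread in which the lowest library reached the level of the treated ones. They were 0.874, 0.914, 0.697 and 0.903 CPM with palmitate, at a log2 fold change of -0.69 ± 0.25 (edgeR adjusted p = 0.0278). This call was lost without BSA replicate 1 or 2 or palmitate replicate 10 or 11, at -0.75 to -0.55. With IL-1β the levels were 0.859, 0.819, 0.822 and 1.03 CPM (-0.65 ± 0.26, edgeR adjusted p = 0.0874), which did not pass the threshold and passed it only without BSA replicate 4 (-0.81, edgeR adjusted p = 0.0336). With palmitate + IL-1β they were 0.368, 0.827, 0.932 and 0.699 CPM (-0.98 ± 0.26, edgeR adjusted p = 0.00223). Palmitate + IL-1β replicate 13 was the lowest of the 16 libraries, at 13 counts.

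Dlx5 (chr6:6877804-6882092) was close to the floor. It had 13, 17, 9 and 18 counts in BSA (control), or 0.384, 0.549, 0.343 and 0.629 CPM, and 3, 17, 6 and 5 counts with palmitate, or 0.146, 0.187, 0.220 and 0.205 CPM. The 17 counts of palmitate replicate 10 belong to the deepest library. All palmitate libraries lay under all BSA libraries, which held for 16.5% of all tested genes. With palmitate + IL-1β the counts were 7, 3, 3 and 8, also under all BSA libraries in CPM, which held for 19.3% of all tested genes. The log2 fold changes of -1.31 ± 0.37 with palmitate and -1.47 ± 0.39 with both are estimates for a gene that passed the filter through its higher conditions. With no expression filter the estimates were -1.31 and -1.50, and no p-value is given for these falls of Dlx5. With IL-1β the levels were 0.613, 0.624, 0.348 and 0.579 CPM, which overlapped BSA (0.16, 95% interval -0.52 to 0.84). Of its close relatives, Dlx3, Dlx4 and Dlx6 were not tested for lack of counts.

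Pax9 (chr12:56738552-56759607) showed a small fall that was even over the libraries. Its levels were 72.3, 69.7, 69.8 and 70.7 CPM in BSA (control), and 55.2, 52.4, 50.7 and 53.5 CPM with palmitate. The groups were far apart for their spread, at a log2 fold change of -0.42 ± 0.04 (edgeR adjusted p = 3.86e-09). With IL-1β they were 70.03, 67.1, 66.9 and 68.5 CPM (-0.05, 95% interval -0.14 to 0.04). With palmitate + IL-1β they were 52.5, 50.1, 46.0 and 47.7 CPM (-0.53 ± 0.04, edgeR adjusted p = 1.91e-11). Slc25a21, a mitochondrial carrier gene on the opposite strand that shares 189 bases of exon with Pax9, also fell with palmitate (-1.42, edgeR adjusted p = 1.57e-05), at 10 to 44 counts per library over all conditions, and so did the antisense RNA Gm15524 (-1.05, edgeR adjusted p = 0.00291). The counting used strand, which keeps their reads apart from those of Pax9 where the libraries kept strand. How fully it did so was not tested.

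Barx1 (chr13:48816384-48819983) was the gene with no call in any comparison. Its levels were 30.2, 29.9, 28.4 and 29.5 CPM in BSA (control) and 31.4, 31.6, 32.0 and 28.9 CPM with palmitate. These overlapped, and the interval of the log2 fold change was narrow, at 0.07 with 95% limits of -0.04 and 0.19. With IL-1β they were 29.8, 31.4, 29.2 and 25.4 CPM (-0.03, 95% interval -0.15 to 0.09), and with palmitate + IL-1β 28.6, 26.8, 26.8 and 29.8 CPM (-0.08, 95% interval -0.19 to 0.04). The last comparison passed the threshold under upper-quartile normalization (-0.15, edgeR adjusted p = 0.0304). A log2 fold change of -0.42, that of Pax9 with palmitate, lay outside all 3 intervals.

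Prrx1 (chr1:163041844-163142033), the most abundant of the set, fell slightly with palmitate. Its mean was 2118 ± 124 CPM (SD, n = 4) in BSA (control), 1805 ± 87.3 with palmitate, 2087 ± 96.5 with IL-1β and 1721 ± 86.4 when both were given. The lowest BSA library, at 2002 CPM, was above the highest palmitate library, at 1927 CPM, and the log2 fold change was -0.23 ± 0.05 (edgeR adjusted p = 0.000213). With palmitate + IL-1β it was -0.30 ± 0.05 (edgeR adjusted p = 3.88e-06), and with IL-1β alone -0.02 (95% interval -0.12 to 0.08). Its paralogue Prrx2 made up 3.77% ± 0.573 (SD, n = 4) of the pair per kb in BSA and 2.34% ± 0.170 with palmitate + IL-1β, and fell in each treated condition (log2 fold changes of -0.49 with palmitate, -0.41 with IL-1β and -1.01 with both). Gm37644, a transcript of uncertain status within Prrx1 on the same strand, had 168 to 852 counts per library and fell with palmitate too (-0.53, edgeR adjusted p = 0.00865).

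Twist1 (chr12:34007645-34009828) fell in each treated condition. Its levels were 98.9, 106, 91.5 and 109 CPM in BSA (control), and 61.8, 58.8, 58.5 and 63.1 CPM with palmitate. No library overlapped, at a log2 fold change of -0.75 ± 0.07 (edgeR adjusted p = 6.11e-09). With IL-1β they were 96.4, 88.5, 81.2 and 77.5 CPM, where the highest lay within the BSA range (-0.24 ± 0.07, edgeR adjusted p = 0.0172). This call was lost without BSA replicate 2 or 4 or IL-1β replicate 7 or 8, at -0.22 to -0.19. With palmitate + IL-1β they were 52.4, 48.4, 49.9 and 59.1 CPM, the lowest of the conditions (-0.95 ± 0.07, edgeR adjusted p = 7.45e-11). The difference from palmitate alone was -0.21 ± 0.07 and missed the threshold (edgeR adjusted p = 0.0647), but passed it with DESeq2 (adjusted p = 0.0401), with no expression filter and in a fit of the 8 libraries compared.

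Twist2, the paralogue of Twist1, was scarce. It made up 0.854% ± 0.133 (SD, n = 4) of the pair per kb in BSA and 1.56% ± 0.157 with palmitate, at a log2 fold change of 0.13 that did not pass the threshold (edgeR adjusted p = 0.491), and rose with IL-1β (0.55, edgeR adjusted p = 0.00270). Pitx1 (chr13:55972864-55984005) had 2 to 20 counts per library and was not tested with edgeR. Its levels were 0.266, 0.194, 0.191 and 0.559 CPM in BSA and 0.0971, 0.220, 0.183 and 0.287 CPM with palmitate, which overlapped (exact permutation test, two-sided, p = 0.429).

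**Figure D4:**
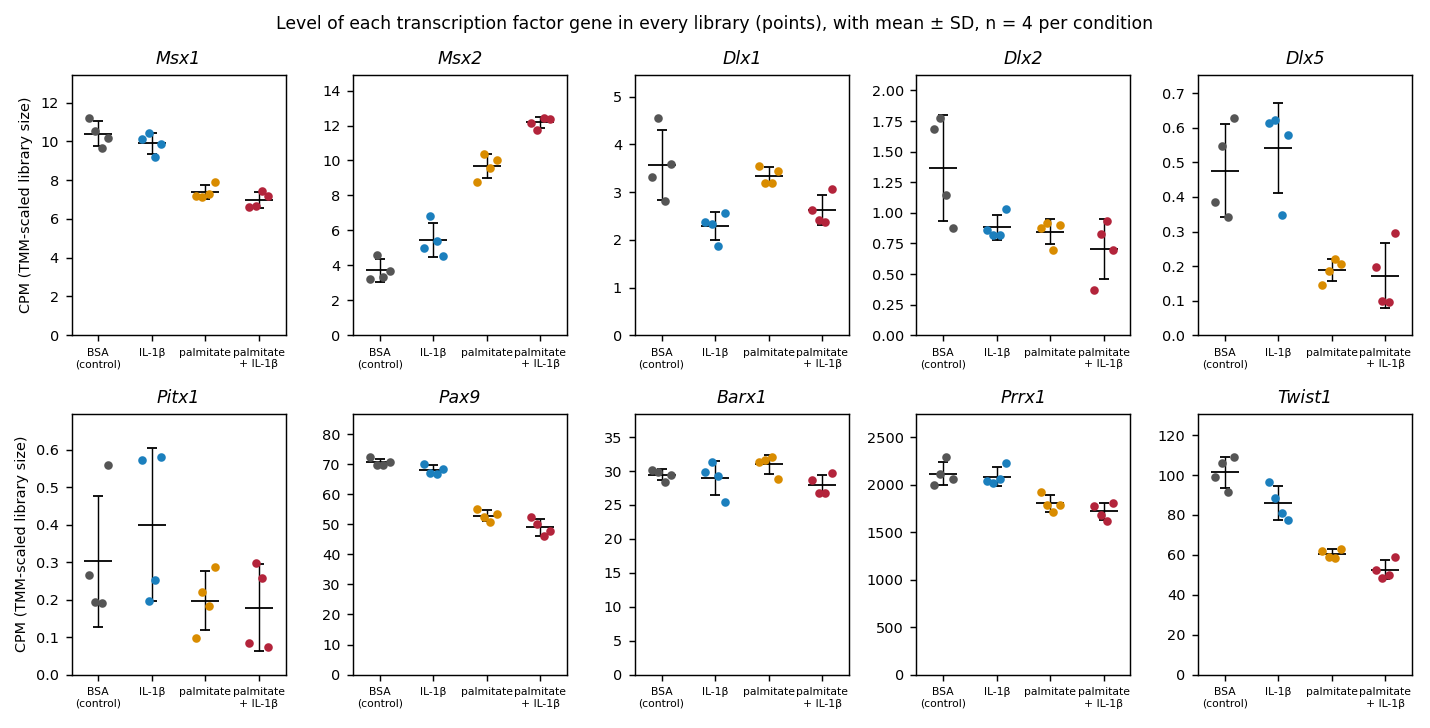
Level of each gene in every library (points, CPM on TMM-scaled library size) with mean ± SD, n = 4 per condition. Msx2 is higher in both conditions with palmitate, Twist1, Pax9 and Msx1 are lower in them, Dlx1 is lower with IL-1β, and Barx1 stays between 25.4 and 32.0 CPM.

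The effect of the agents together was also tested as an interaction, that is, whether the change with palmitate + IL-1β differed from the sum of the single changes on the log2 scale. None of the 9 genes passed (edgeR adjusted p of 0.67 to 1), and none had an unadjusted p under 0.05, where 1.99% of all genes passed. DESeq2 called 0 of them too. The largest estimates were 0.36 (95% interval -0.41 to 1.12) for Dlx2 and -0.32 (95% interval -1.46 to 0.82) for Dlx5. The intervals for Msx1, Pax9, Barx1, Prrx1 and Twist1 lay within -0.29 and 0.24. Those for Msx2 (-0.24, 95% interval -0.55 to 0.08) and Dlx1 (0.31, 95% interval -0.11 to 0.74) were wider. Against IL-1β alone, palmitate + IL-1β raised Msx2 and lowered Msx1, Pax9, Prrx1 and Twist1 among the 8 genes tested beside Dlx5. Of all genes 35% were called in that comparison, 18.9% higher and 16.1% lower.

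Over the 16 libraries, the levels of Msx1, Pax9, Prrx1 and Twist1 went up and down together, with Pearson r of 0.807 to 0.949 on log2 CPM, and Msx2 ran against them (-0.950 to -0.884). Barx1 had r of -0.051 to 0.182 with these 4 genes. The points share libraries and conditions, so the values mostly restate the differences between conditions. The 2 protein-coding genes most like each member by the same measure, out of 12912 searched, were Ogn (0.988) and Aspn (0.987) for Pax9, which encode small leucine-rich proteoglycans of the matrix, Meis2 (0.984) and Glt8d2 (0.979) for Twist1, and Madcam1 (0.984) and Slpi (0.977) for Msx2. They were Mecom (0.976) and Cdh3 (0.974) for Msx1, Tcaf2 (0.964) and Fhip1a (0.959) for Prrx1, and Ano3 (0.925) and Plagl1 (0.924) for Dlx5. Likeness was lower for Dlx2 with Pradc1 (0.898) and Kantr (0.882), for Dlx1 with Slc25a38 (0.843) and Pdcd4 (0.833) and for Barx1 with Sap18 (0.836) and Stmn1 (0.833). Madcam1 was near the floor, with means of 0.0155 CPM in BSA, 0.139 with IL-1β, 0.524 with palmitate and 0.814 with both. Its r thus rests in part on libraries under the floor.

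Other transcription factors of the craniofacial mesenchyme were taken as a list of 55 genes, of which 36 were tested. With palmitate 27 fell and 6 rose, with a median log2 fold change of -0.51, where 17.5% of all genes were called lower and 19.8% higher. Levels below are means ± SD of 4 libraries, and log2 fold changes are given ± SE. Zeb1 and Zeb2, zinc finger repressors of epithelial genes, rose from 279 ± 11.1 to 466 ± 10.8 CPM (0.74 ± 0.04, edgeR adjusted p = 2.65e-15) and from 100.4 ± 3.35 to 154 ± 2.73 CPM (0.62 ± 0.04, edgeR adjusted p = 3.78e-14). Nr2f1, a nuclear receptor of arch mesenchyme, fell from 60.5 ± 2.27 to 23.7 ± 0.304 CPM (-1.35 ± 0.07, edgeR adjusted p = 6.97e-15). With IL-1β 9 fell and 4 rose (4.97% and 10.1% of all genes), and with palmitate + IL-1β 24 fell and 5 rose (22.5% and 24.8% of all genes). Zeb2 (0.39), Zeb1 (0.37) and Ets1 (0.40) led with IL-1β, all higher. Zeb2 (0.88) and Zeb1 (0.86) rose with palmitate + IL-1β, and Six2, a homeobox gene of facial mesenchyme, fell (-0.89).

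**Figure D5:**
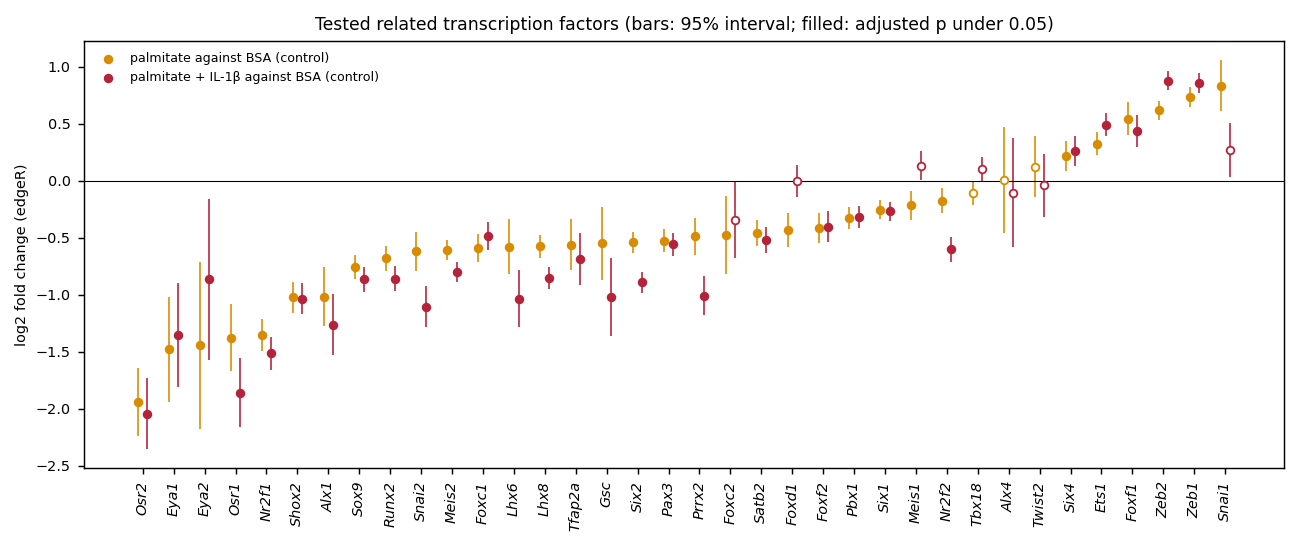
Log2 fold change against BSA (control) for the 36 tested genes of the list of related factors, in palmitate (orange) and in palmitate + IL-1β (red), with 95% intervals; filled points have an adjusted p under 0.05. With palmitate 27 genes were called below 0 and 6 above it.

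Hox genes were nearly absent in these cells. Of 39 Hox genes, 27 were at or under the floor of 3 counts in every library and 3 were tested, and their summed level was 1.05 to 3.79 CPM per library. Hoxd8 had 257 counts over all 16 libraries and Hoxb9 had 183. Against BSA, edgeR called 0 of the 3 in each condition; 2 of them had an unadjusted p under 0.05 with palmitate + IL-1β, where DESeq2 called 1, Hoxb9. Hand2, the helix-loop-helix factor of the lower jaw, had a mean of at most 0.00739 CPM in a condition.

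The arch signals were followed from ligand to inhibitor. Of 10 ligand genes 6 were tested, and with palmitate 1 rose and 4 fell (median log2 fold change -0.53), where 37.3% of all genes were called. Bmp2 rose from 0.547 ± 0.317 to 2.18 ± 0.226 CPM (2.04 ± 0.25, edgeR adjusted p = 5.06e-08), while Wnt5a fell from 156 ± 6.38 to 102 ± 3.73 CPM (-0.61 ± 0.04, edgeR adjusted p = 1.59e-13) and Fgf10 fell (-0.69, edgeR adjusted p = 0.0113). With IL-1β 2 fell, Wnt5a (-0.14) and Bmp4 (-0.51), and with palmitate + IL-1β 1 rose and 4 fell, led by Wnt5a (-0.77), Bmp2 (1.57) and Fgf10 (-0.85). The shares of all genes called in those comparisons were 15.1% and 47.3%.

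All 20 receptor and transducer genes were tested. With palmitate 4 rose and 11 fell (median log2 fold change -0.25), where 37.3% of all genes were called. The FGF receptors Fgfr1 and Fgfr2 moved apart, Fgfr1 from 157 ± 4.08 to 266 ± 3.76 CPM (0.76 ± 0.04, edgeR adjusted p = 1.35e-16) and Fgfr2 from 43.2 ± 1.51 to 22.5 ± 0.751 CPM (-0.93 ± 0.06, edgeR adjusted p = 3.9e-15). Ednra, the endothelin receptor of arch mesenchyme, fell from 10.2 ± 0.346 to 4.42 ± 0.307 CPM (-1.19 ± 0.09, edgeR adjusted p = 4.55e-12). With IL-1β 2 rose, Fgfr1 (0.29) and the BMP receptor gene Bmpr1b (0.39), and 1 fell, the retinoic acid receptor gene Rarg (-0.14), a share near the 15.1% of all genes that were called. With palmitate + IL-1β, where 47.3% of all genes were called, 4 rose and 10 fell, led by Fgfr1 (0.76), Fgfr2 (-1.06) and Ednra (-1.42).

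Of 20 genes that these signals switch on or that inhibit them, 19 were tested. With palmitate 2 rose and 7 fell (median log2 fold change -0.11), where 37.3% of all genes were called. Etv5, an ETS factor downstream of FGF, rose (1.15, edgeR adjusted p = 5.95e-11), and the BMP inhibitors Chrd (-0.90, edgeR adjusted p = 1.5e-07) and Bambi (-1.02, edgeR adjusted p = 5.79e-07) fell. With IL-1β 1 rose and 7 fell, where 15.1% of all genes were called, and Grem1 (-0.18) and Smad6 (-0.34), which both restrain BMP signals, were among the lower genes. With palmitate + IL-1β 4 rose and 11 fell, where 47.3% of all genes were called, led by Smad6 (-1.19), Grem1 (-0.37) and Etv5 (0.98).

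Genes of proteins that pair with TWIST1 or inhibit such pairing were taken as a list of 8, 7 of them tested. The list held Tcf3, Tcf4, Tcf12 and Hand2, and the inhibitors Id1, Id2, Id3 and Id4. With palmitate 5 fell and 0 rose (median log2 fold change -0.38), where 17.5% of all genes were called lower and 19.8% higher. Tcf4 and Tcf12, which encode E proteins that form dimers with TWIST1, fell from 499 ± 15.3 to 331 ± 6.38 CPM (-0.59 ± 0.04, edgeR adjusted p = 2.16e-13) and from 266 ± 4.18 to 205 ± 2.94 CPM (-0.38 ± 0.04, edgeR adjusted p = 7.47e-10), and Id4, an inhibitor of such dimers, fell as well (-0.55, edgeR adjusted p = 1.96e-04). With IL-1β 1 fell, Id4 (-0.60), where 4.97% of all genes were called lower, and with palmitate + IL-1β 6 fell, where 22.5% were, led by Tcf4 (-0.66), Tcf12 (-0.40) and Id4 (-0.94).

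Genes described elsewhere as targets of these factors made up a list of 15, of which 9 were tested. With palmitate 7 fell and 1 rose (median log2 fold change -0.62), where 37.3% of all genes were called. Osr2, a palate factor, fell from 6.29 ± 0.334 to 1.62 ± 0.285 CPM (-1.94 ± 0.15, edgeR adjusted p = 1.81e-12) and Runx2, the bone factor, from 52.7 ± 1.30 to 33.0 ± 1.59 CPM (-0.68 ± 0.05, edgeR adjusted p = 5.74e-12), next to Fgfr2 above. With IL-1β the matrix gene Tnc rose (0.41) and Bmp4 fell (-0.51, edgeR adjusted p = 0.0316), and with palmitate + IL-1β 7 fell and 1 rose, led by Fgfr2, Runx2 (-0.86) and Osr2 (-2.04). Of all genes 15.1% were called with IL-1β and 47.3% with both. Several genes stand in more than 1 of these lists.

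Marker levels of cell types moved with palmitate as well. Of the 10 fibroblast markers 5 fell and 1 rose with palmitate, with a median log2 fold change of -0.14, where 17.5% of all genes were called lower and 19.8% higher, and their summed level was 31583 to 33482 CPM in BSA and 29225 to 31300 CPM with palmitate. The summed level of the 10 epithelial markers was 4.03 to 4.85 CPM in BSA and 2.49 to 2.96 CPM with palmitate, with Odam at 0 in every library. Of the counts of that list 84.1% were of 1 gene, Dsp (1441 of 1713), and 2 of the 10 were tested, of which Dsp fell with palmitate (log2 fold change -0.78, edgeR adjusted p = 4.93e-05). That of the 7 pericyte and muscle markers was 199 to 220 CPM in BSA and 182 to 196 CPM with palmitate. The part of these differences in the changes of Msx1, Msx2, Pax9, Prrx1 and Twist1 was not tested.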

How the data were processed

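Bulk RNA of 16 libraries of murine gingival fibroblasts was analysed, 4 per condition, grouped by the deposited labels. The deposited values are raw counts per gene, which the authors made by trimming with Trimmomatic 0.39, aligning to GRCm39 with STAR 2.7.10a and counting by strand with HTSeq 2.0.9 (versions from the submitters' processing notes). Per the labels the library kit took stranded total RNA, whereas the methods of the study describe oligo(dT) priming. The 5 summary rows that name no gene, 18.3% to 21.4% of each library, were left out.

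Counts were tested with edgeR 4.0.16 in R 4.3.3 (TMM, filterByExpr with a minimum count of 10, glmQLFit with robust estimation, glmQLFTest), in 1 model of the 16 libraries with 1 term for each condition and Benjamini-Hochberg adjustment over 16306 genes. Calls were made below an adjusted p of 0.05. CPM used TMM-scaled library sizes, and the common biological coefficient of variation was 6.08%. Replicates were compared with a chi-square test of their counts, which found more than sampling noise in all 24 pairs. The steps were tested on simulated data. Lengths and positions came from GENCODE vM39, and shared sequence was searched with blastn 2.17.0. Reads aligned to more than 1 place were not counted. No member of the set shared 100 bases at 95% identity with another member, but some did with genes outside the set. Msx2 shared stretches of 100 to 116 bases with transcripts of other genes. Dlx1 shared 2304 bases at 100% identity with Dlx1as on the opposite strand. Pax9, Pitx1 and Prrx1 shared stretches of at most 189 bases with other genes. The effect of these stretches on the counts was not tested.

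The genes and lists were chosen with earlier results of these data known. All members are named, and from each list the up to 3 called genes with the smallest adjusted p in each comparison with BSA, the 3 Hox genes with the most counts, the 2 genes most alike to each member and overlapping genes. Prrx2, Twist2, Hand2 and other paralogues were named in addition, after their values were seen. Results of some genes that this rule names are not reported here. Alternatives were DESeq2 1.42.0, upper-quartile and RLE scaling, 2 other expression filters, a fit without ribosomal RNA genes and genes of the mitochondrial genome, the 8 libraries compared, each library left out, unscaled library sizes and, added after seeing the data, the canonical transcript length and counts without Dlx5. The protein, adenosine and respiration measurements of the study were not analysed here.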

Additional observations from a re-analysis of the deposited data

Results flagged for a closer look

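In the 40 groups of 4 libraries that 10 genes and 4 conditions give, 1 library stood apart from the other three by Dixon's criterion (critical value 0.829), and chance gives about 1 in 20. It was IL-1β replicate 7 for Dlx5, at 0.348 CPM, where the others lay between 0.579 and 0.624 CPM (ratio of gap to range 0.838). The library had 11 counts of Dlx5.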

How the results depend on the processing

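No paired analysis was possible because the libraries are numbered 1 to 16 and no number is shared between conditions. Of 994 values of the members' fold changes under the alternatives, 951 kept their direction and their side of the threshold, 21 kept the direction only, and 22 changed sign, at -0.04 to 0.04 and without a call in any of them or in the values they are compared with. Those 22 were of the interaction for Msx1 and Twist1, and of single comparisons for Dlx1, Dlx2, Dlx5, Barx1 and Prrx1. In palmitate + IL-1β against palmitate, 0 genes were called lower as reported and 1, Twist1, with no expression filter, with DESeq2 and in the fit of the 8 libraries compared. With 1 library left out, that count ranged from 0 to 1 (1 without palmitate + IL-1β replicate 16), the count called higher in this comparison ranged from 0 to 1, and the count called lower with IL-1β from 1 to 2. The mean in BSA (control) moved by more than 1 SD for Pax9, to 72.6 CPM with unscaled library sizes and 73.1 CPM with upper-quartile scaling, and for Barx1, to 30.3 and 30.5 CPM. Among all genes called, the share called higher was 53.1% with palmitate, 67.1% with IL-1β and 52.4% with both under TMM, and 37.1%, 43.5% and 38.7% under upper-quartile scaling, which moved the median of all genes to -0.07, -0.05 and -0.08 on the log2 scale. With IL-1β, the same scaling raised the number called lower from 9 to 13 among the related factors, from 1 to 3 among receptors and from 1 to 4 among described targets. Counts of 2 to 20 per library limit Pitx1 and Dlx5.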
